A study of Homo sapiens with 90 samples.

Results

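Levels of 10 regulators of the integrated stress response were followed over every concentration of 3 chemicals in A673 cells. The genes were ATF4, ATF3, ATF5, DDIT3, TRIB3, CHAC1, DDIT4, SESN2, CEBPB and PPP1R15A, and their members on the array were the probe sets annotated to exactly 1 of these symbols. That rule gave 18 probe sets for the 10 genes, of 54613 probe sets and 19774 genes measured, and all 10 genes had at least 1 probe set. A673 is a human Ewing sarcoma line. Exposure to fenbuconazole, imazalil or 2,4-D lasted 24 h, at 9 concentrations of each chemical in roughly even log steps between 0.001 and 10 µM, and every well, treated or vehicle control, held 0.2% DMSO. Each chemical's set held 30 columns, with 3 arrays per concentration and 3 columns of DMSO, and total RNA was read on Affymetrix arrays that carry perfect-match probes only. Fenbuconazole is a triazole fungicide, imazalil an imidazole fungicide and 2,4-D a phenoxyacetic acid herbicide. All cells were of 1 tumour line in monoculture, which limits them as a model of any tissue.

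The integrated stress response starts when a kinase that senses amino acid shortage, unfolded protein, viral RNA or haem deficiency phosphorylates the initiation factor eIF2. General translation then slows while the ATF4 messenger RNA is translated more, so ATF4 protein can rise with little change of its RNA. ATF4 binds C/EBP-ATF response elements together with C/EBP family partners and drives genes of amino acid supply, of redox defence and of the shut-off of the response itself. ATF3, ATF5, DDIT3 (CHOP) and CEBPB are leucine zipper transcription factors of this network. TRIB3 is a pseudokinase that binds ATF4 and CHOP, CHAC1 is a glutathione-degrading enzyme, DDIT4 and SESN2 restrain the growth kinase complex mTORC1, and PPP1R15A (GADD34) directs a phosphatase to eIF2.

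The genes were chosen by their measured values, because ATF4-linked genes stood low at 10 µM fenbuconazole and 10 µM imazalil in these same arrays. The values at 10 µM of these 2 chemicals are therefore given as a description, with no test. Tests were made on 2,4-D, on the 8 concentrations from 0.001 to 3 µM, and on the replicate numbers, with limma across all 54613 probe sets and Benjamini-Hochberg adjustment at a threshold of 0.05. Values are log2 RMA levels, where RMA is robust multi-array averaging, and 1 unit is a doubling of the array signal. Each gene is given on its brightest probe set (the highest average across the 90 columns) unless another is named. The authors normalized the 3 sets separately, so a level is read only within its set.

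The labels call the DMSO arrays common to the sets. Between imazalil and 2,4-D, DMSO columns of the same number did correlate at 0.867 to 0.878 once each set's mean was subtracted, so they were counted as the same 3 arrays. Those of fenbuconazole reached only 0.105 to 0.185 with their imazalil counterparts, although both carry the same numbers in the description labels. These label numbers were read as run numbers, although their meaning is not stated. Labels and values thus disagree on whether the DMSO columns of fenbuconazole and imazalil are the same arrays. The fenbuconazole DMSO columns were counted separately, which left 87 distinct arrays with 6 of DMSO. Independent cell batches are described in the methods, and a replicate number was read as 1 such batch although no label says so. The run numbers in the labels lay in 1 separate range per replicate number. Within a chemical and a replicate number the run number fell as the concentration rose. If it does give the run position, that position and concentration cannot be told apart. The 5 measured A673 markers (NKX2-2, STEAP1, CCND1, CAV1 and FLI1) had mean levels of 7.70 to 12.5 in the fenbuconazole set, whose array medians lay between 2.76 and 2.83, while the 6 markers of the liver line HepaRG ran from 2.45 to 4.21 (highest AHSG, with ALB at 2.69). The 6 markers of the breast line MCF7 ran from 2.41 for TFF1 to 9.05 for XBP1, which many secretory and stressed cells express, with GATA3 next at 4.46. With 3 arrays per group, array number limited the precision, and fewer cells of a state cannot be told apart from less RNA per cell.

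The start-site regions of the members show which of them carry the letters that ATF4 and its relatives are known to bind. In the RefSeq table (build GRCh38.p14), all 10 members had at least 1 start site. The 250 bases before each start were searched on both strands for TGATGNAA, the core of the C/EBP-ATF response element, and for TGACGTCA, the cyclic AMP response element that reads the same on both strands. The first motif was found for CHAC1 and ATF3, against 3.89% of all 27305 genes in the table, and the second for PPP1R15A alone, against 2.03% of all genes. No member held both. A match is a run of letters and not a shown binding site, and no match says only that these letters are not in this window. TRIB3, DDIT4, SESN2 and ATF5 also stood low at 10 µM fenbuconazole and held neither motif, and a link between motif and level was not tested. Only CHAC1, ATF3 and PPP1R15A held a match, and their windows are shown for that reason. They are written 5′ to 3′ on the gene's strand, with the matches in capitals.
CHAC1, chr15:40953236-40953295, plus strand, the motif lying on the opposite strand: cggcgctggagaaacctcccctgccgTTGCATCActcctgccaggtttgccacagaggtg
ATF3, chr1:212565190-212565249, plus strand, before the more upstream of the starts in the table: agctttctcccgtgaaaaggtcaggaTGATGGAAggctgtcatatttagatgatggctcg
PPP1R15A, chr19:48872337-48872396, plus strand: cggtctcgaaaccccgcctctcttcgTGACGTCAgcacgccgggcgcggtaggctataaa

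At 10 µM fenbuconazole the pseudokinase TRIB3 stood lower than at every other concentration. Its values in replicate numbers 1, 2 and 3 were 7.005, 7.295 and 6.9995 at 10 µM, against 7.87, 8.10 and 7.34 in DMSO. Over the 24 arrays from 0.001 to 3 µM it ran between 7.37 and 8.29 with a median of 7.77. All 3 arrays at 10 µM lay below all 3 DMSO arrays and below all 24 arrays of the other concentrations. The difference was -0.74 (SE 0.16) against the other 8 concentrations, a fold of 0.599, and -0.67 (SE 0.22) against DMSO. Of all 54613 probe sets, only 1 had a lower difference against the other 8 concentrations, a contrast that was used to propose the gene. Along the series TRIB3 averaged 7.77 ± 0.39 in DMSO, 7.71 ± 0.35 at the lowest concentration, 7.84 ± 0.29 at 0.1 µM, 7.995 ± 0.27 at 3 µM and finally 7.10 ± 0.17 at 10 µM (mean ± SD, n = 3 each).

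CHAC1, the glutathione-degrading enzyme, had 5.27, 5.66 and 4.93 at 10 µM fenbuconazole, against 5.87, 5.90 and 5.64 in DMSO. Its 24 arrays at the other concentrations ran from 5.60 to 6.12 with a median of 5.91. Arrays 1 and 3 at 10 µM lay below all of these, while array 2 lay above 3 of them and above the lowest DMSO array. The difference against the other 8 concentrations was -0.59 (SE 0.11), the 10th lowest of all probe sets, and against DMSO it was -0.52 (SE 0.14). ATF3, a stress-induced repressor and activator of transcription, had 5.28, 5.73 and 5.43 at 10 µM, against 5.89, 6.04 and 5.74 in DMSO. The other 24 arrays ran from 5.76 to 6.10 with a median of 5.94, so the groups did not overlap in either comparison. The differences of ATF3 were -0.45 (SE 0.08) and -0.41 (SE 0.11), and its mean stayed between 5.89 and 5.99 from 0.001 to 3 µM before standing at 5.48 ± 0.23 at 10 µM (SD, n = 3).

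Both inhibitors of mTORC1 were low as well. DDIT4 had 6.37, 6.76 and 6.26 at 10 µM fenbuconazole, against 6.80, 7.25 and 6.64 in DMSO, and its difference against the other 8 concentrations was -0.56 (SE 0.17). The array of number 2 overlapped the other concentrations, since 5 of the 24 arrays lay below it. These 24 ran from 6.58 to 7.41. SESN2 had 4.91, 5.10 and 5.22 at 10 µM, against 5.43, 5.69 and 5.17 in DMSO, with a difference of -0.46 (SE 0.12) from the other 8 concentrations. Here number 3 overlapped the DMSO range. ATF5, a leucine zipper factor that ATF4 controls, had 8.65, 8.72 and 8.72 at 10 µM, against 8.87, 9.19 and 8.70 in DMSO. It lay below all 24 other arrays (8.82 to 9.48) but not below all DMSO arrays, and its difference was -0.37 (SE 0.09) from the other 8 concentrations and -0.22 (SE 0.13) from DMSO.

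The remaining 4 members differed by 0.20 or less on the log2 scale from the other 8 concentrations. DDIT3, the factor CHOP, had 7.43, 7.35 and 7.47 at 10 µM fenbuconazole, against 7.57, 7.65 and 7.58 in DMSO, a difference of -0.18 (SE 0.11) with no overlap. Against the other 8 concentrations it stood at -0.17 (SE 0.09), with 5 of 24 arrays below its highest value. PPP1R15A had 5.01, 4.89 and 5.02 at 10 µM, against 5.34, 5.29 and 5.21 in DMSO, and differed by -0.31 (SE 0.11) from DMSO and by -0.20 (SE 0.08) from the other 8 concentrations. ATF4 itself had 10.72, 10.87 and 10.79 at 10 µM, against 10.89, 10.92 and 10.77 in DMSO. Its difference of -0.12 (SE 0.07) from the other 8 concentrations was smaller than that of TRIB3, and its arrays of numbers 2 and 3 lay within the DMSO range. CEBPB, the liver-enriched activator, was the member that stood higher, at 0.05 (SE 0.06) against the other 8 concentrations, with 11.22, 11.12 and 11.19 at 10 µM.

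**Figure D1:**
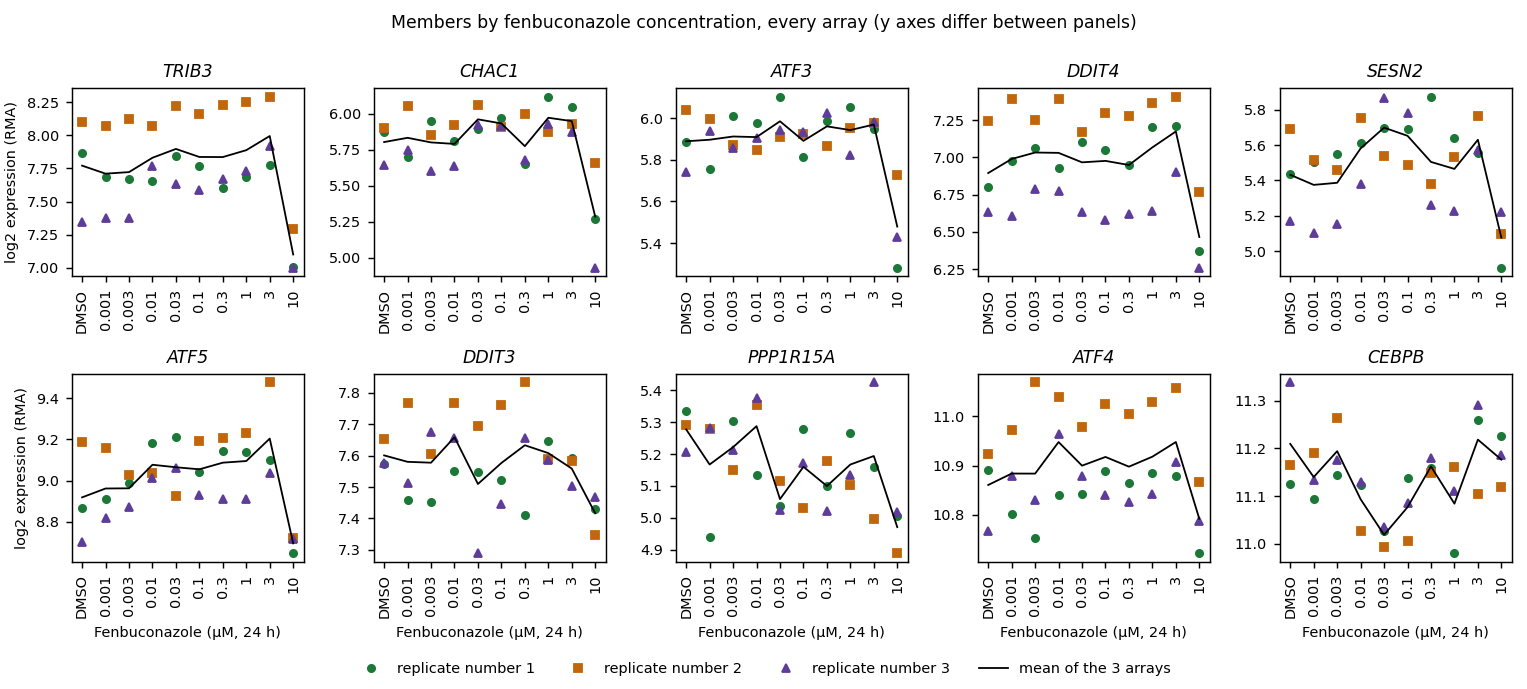
Log2 RMA level (vertical axis, scaled per panel) of the 10 genes by fenbuconazole concentration in µM (horizontal axis, DMSO first, ordered groups at equal spacing), with 1 point per array, marked by replicate number, and a line through the mean of the 3 arrays of a group. In 9 of 10 panels the mean at 10 µM is the lowest of all groups, while in that of CEBPB it is not, and the ATF5 mean is 8.92 in DMSO, 9.20 at 3 µM and 8.70 at 10 µM.

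As a group, 9 of 10 genes stood lower at 10 µM fenbuconazole than at the other 8 concentrations, with a median of -0.41, against -0.0037 over all 19774 genes. Against DMSO, 10 of 10 stood lower with a median of -0.33, although CEBPB turned to 0.03 without replicate number 3. The 10 µM arrays lay below all 24 arrays of the other concentrations for ATF3, ATF5 and TRIB3, where 0.103% of all probe sets did so, and below all 3 DMSO arrays for ATF3, DDIT3, TRIB3 and PPP1R15A, where 5.76% did so. Since the members were proposed from these contrasts, nothing is read from those shares. The same holds for the ranks of TRIB3 and CHAC1 above and for the fungicide shares below. The second probe sets of TRIB3, SESN2 and PPP1R15A stood at -0.56, -0.45 and -0.20 against the other 8 concentrations. That of TRIB3 overlapped, since 11 of the 24 other arrays lay below its highest array at 10 µM and 0 of its 3 arrays lay below them all. The probe sets of ATF5 and ATF3 disagreed among themselves, with ATF5 between -0.52 and 0.0030 and ATF3 between -0.45 and -0.03, and the smallest differences came from their dimmer probe sets.

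The 10 µM arrays were also set against the other concentrations of the same replicate number, which sets aside level differences between the numbers. In fenbuconazole the 10 µM array was below all 8 lower concentrations of its own number in 3 of 3 numbers for ATF4, ATF3, ATF5, TRIB3, CHAC1 and DDIT4, which 0.331% of all probe sets reached. TRIB3 ran from -0.88 to -0.63 over the 3 numbers, and DDIT4 from -0.69 to -0.43. CHAC1 spread more widely, from -0.86 to -0.29, as did ATF3, from -0.68 to -0.19, in both genes with number 2 nearest to 0. ATF4 differed by only -0.15 to -0.08, yet in all 3 numbers its 10 µM array was the lowest.

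**Figure D2:**
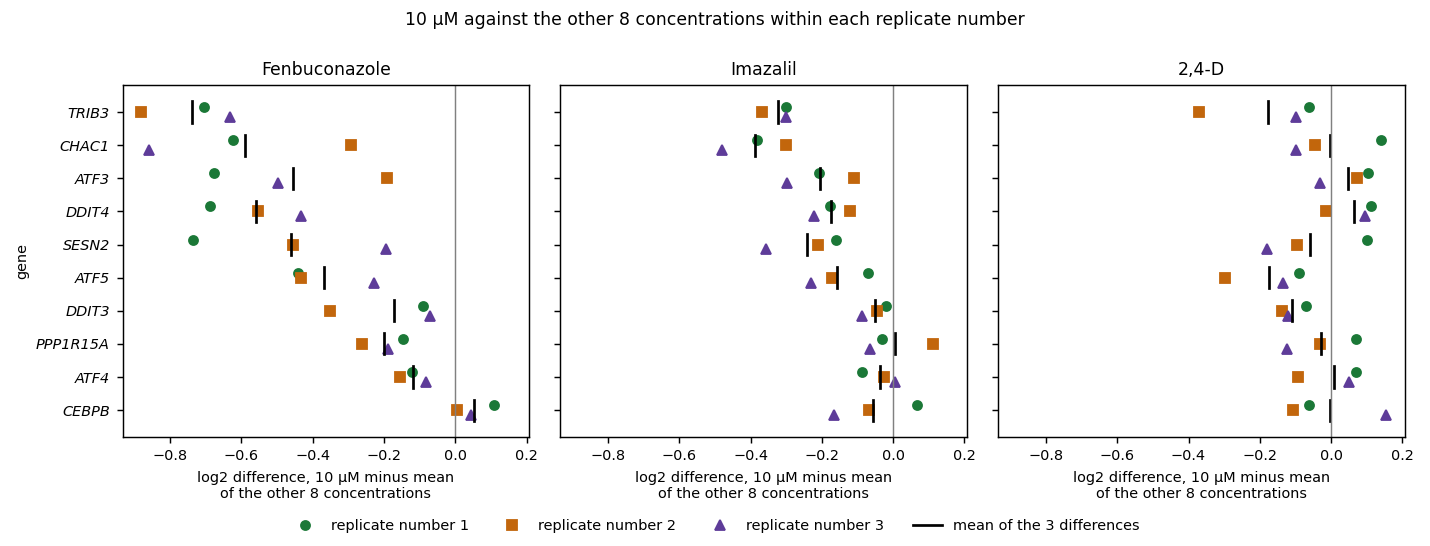
Log2 difference of the 10 µM array from the mean of the other 8 concentrations of the same replicate number (horizontal axis) for each gene (vertical axis) and chemical (panels), with 1 point per replicate number and a bar at their mean. Fenbuconazole points of TRIB3 lie between -0.88 and -0.63, imazalil points of TRIB3 between -0.37 and -0.30, and 2,4-D points of CHAC1 lie on both sides of 0.

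Imazalil at 10 µM gave differences of smaller size in most of the same genes. CHAC1 had 6.06, 6.27 and 5.75 at 10 µM imazalil, against 6.62, 6.76 and 6.19 in DMSO, a difference of -0.50 (SE 0.17). Against the other 8 concentrations it stood at -0.39 (SE 0.12), with arrays 1 and 3 below all 24 arrays (6.12 to 6.68). TRIB3 had 8.38, 8.65 and 8.24 at 10 µM, against 8.74, 9.12 and 8.50 in DMSO. Its difference was -0.36 (SE 0.20) from DMSO and -0.32 (SE 0.14) from the other 8 concentrations, where 10 of 24 arrays lay below its highest value. ATF3 had 6.30, 6.50 and 6.25 at 10 µM, against 6.75, 6.70 and 6.62 in DMSO, and was the 1 member whose 10 µM arrays lay below all DMSO arrays, which 3.66% of all probe sets did. Its difference of -0.34 (SE 0.10) from DMSO compared with -0.20 (SE 0.07) from the other 8 concentrations.

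Among the other members at 10 µM imazalil, SESN2 stood at -0.24 (SE 0.13), DDIT4 at -0.17 (SE 0.16) and ATF5 at -0.16 (SE 0.08) against the other 8 concentrations. ATF4, CEBPB, DDIT3 and PPP1R15A lay between -0.06 and 0.01. The median over the 10 genes was -0.17 in both comparisons, and the 10 µM arrays lay below all 24 arrays of the other concentrations for 0 of 10 genes (0.0549% of all probe sets). Within replicate numbers, TRIB3 ran from -0.37 to -0.30 and CHAC1 from -0.48 to -0.30, and both were below all 8 lower concentrations in 3 of 3 numbers, which 0.245% of all probe sets reached. Against the other 8 concentrations TRIB3 and CHAC1 stood lowest of the members with both fungicides. Whether the fungicides differed from each other was not tested, since both contrasts had been used to propose the genes. Values side by side against the other 8 concentrations were -0.74 and -0.32 for TRIB3, -0.59 and -0.39 for CHAC1, and -0.45 and -0.20 for ATF3, with fenbuconazole first.

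At 10 µM 2,4-D, which could be tested, 0 of 10 genes passed against DMSO or against the other 8 concentrations (limma, with 0% and 0.00549% of all probe sets passing). At an unadjusted p under 0.05 the counts were 0 and 1 of 10 genes, against 3.85% and 6.46% of all probe sets, and the 1 gene was ATF5. TRIB3 had 8.93, 8.90 and 8.64 at 10 µM 2,4-D, against 8.88, 9.27 and 8.66 in DMSO. Its difference from DMSO was -0.11 with a 95% interval from -0.53 to 0.31. CHAC1 had 6.77, 6.69 and 6.25 at 10 µM, against 6.59, 6.82 and 6.21 in DMSO, with an interval of the difference from -0.34 to 0.41. ATF3 had 6.72, 6.76 and 6.54, against 6.83, 6.74 and 6.62 in DMSO, with an interval from -0.26 to 0.14. The difference between imazalil and 2,4-D was not tested, and both were set against the same DMSO arrays.

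Over the 10 genes, differences from DMSO at 10 µM 2,4-D ran from -0.11 to 0.15 with a median of -0.03, and those from the other 8 concentrations from -0.18 to 0.06 with a median of -0.02. ATF5 stood at -0.17 against the other 8 concentrations (SE 0.08, adjusted p = 0.735), with 2 of 3 arrays below all lower concentrations of their own number. Its second probe set stood at -0.27 (adjusted p = 0.417), the smallest adjusted p of the 18 probe sets in this comparison. On that probe set all 3 arrays at 10 µM lay below all 3 DMSO arrays, which 3.8% of all probe sets did. Of the 18 probe sets, 1 against DMSO and 2 against the other 8 concentrations had an unadjusted p under 0.05 (limma). DDIT4 was the member whose 10 µM arrays were higher than the same-numbered DMSO arrays in 3 of 3 numbers, by 0.07 to 0.25, and it did not pass (difference 0.15, SE 0.20, adjusted p = 1). With the replicate number as a block, 0 of 10 genes passed in either comparison too, with 0% and 0.00183% of all probe sets passing. Within replicate numbers, 0 of 10 genes were below all 8 lower concentrations in 3 of 3 numbers, which 0.32% of all probe sets reached.

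From 0.001 to 3 µM no member passed a test against concentration. The slope on log10 concentration was called for 0 of 10 genes in fenbuconazole, imazalil and 2,4-D, and 0% of all probe sets were called in each, although 2260, 2335 and 1643 of them had an unadjusted p under 0.05. A test of any difference among the 8 concentrations also called 0 of 10 genes and 0% of all probe sets in each chemical, with 2121, 1826 and 2036 probe sets at an unadjusted p under 0.05. Of the slopes, ATF5 with fenbuconazole was 0.06 per 10-fold concentration (SE 0.03, unadjusted p = 0.0309 and adjusted p = 1) and ATF3 with imazalil was -0.04 (SE 0.02, unadjusted p = 0.0443 and adjusted p = 1) by limma. The slope of TRIB3 with fenbuconazole was 0.07 (SE 0.04), of the opposite sign to its difference at 10 µM.

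The spread of group means over these 8 concentrations sets a scale for the values at 10 µM. In fenbuconazole the means of TRIB3 ranged from 7.71 at 0.001 µM to 7.995 at 3 µM, a span of 0.28, and those of ATF3 spanned 0.09. The widest span in that set was 0.32, for SESN2. In imazalil the spans lay between 0.12 for ATF5 and 0.31 for SESN2 and PPP1R15A, and the CHAC1 and DDIT4 means were lowest at 3 µM (6.32 and 7.63). In 2,4-D they lay between 0.06 for ATF4 and 0.26 for CHAC1. No difference among these 8 concentrations passed for any member, which does not show that their levels were equal.

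Several members differed by replicate number. DDIT4 averaged 6.97 ± 0.24, 7.26 ± 0.19 and 6.64 ± 0.17 in numbers 1, 2 and 3 of the fenbuconazole set (SD, n = 10 arrays each), and the difference among numbers passed (limma, adjusted p = 1.47e-07). In the imazalil set the means were 7.76, 8.03 and 7.45 (adjusted p = 6.35e-09), and in the 2,4-D set 7.91, 8.09 and 7.58 (adjusted p = 6.34e-08). In all 10 groups of each set the array of number 2 was the highest and that of number 3 the lowest. The span between the replicate means was 0.61 in the fenbuconazole set, close in size to the difference of DDIT4 at 10 µM.

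TRIB3 averaged 7.66 ± 0.24, 8.08 ± 0.29 and 7.54 ± 0.27 in numbers 1, 2 and 3 of the fenbuconazole set (limma, adjusted p = 6.07e-06). Its means were 8.66, 8.99 and 8.50 in the imazalil set (adjusted p = 7.84e-07) and 8.97, 9.24 and 8.72 in the 2,4-D set (adjusted p = 9.38e-07). Number 2 was the highest in 10, 10 and 9 of 10 groups. CHAC1 passed in the imazalil set, at 6.42, 6.56 and 6.18 (adjusted p = 0.000297), and in the 2,4-D set, at 6.64, 6.74 and 6.32 (adjusted p = 6.7e-05), and did not pass in the fenbuconazole set, at 5.83, 5.91 and 5.69 (adjusted p = 0.189). ATF5 and SESN2 likewise passed in the imazalil and 2,4-D sets only, with spans of 0.21 to 0.37 there, although whether the sets differed was not tested. ATF4 passed in the 2,4-D set alone, with means of 11.51, 11.54 and 11.42 (adjusted p = 0.0351). In that gene number 2 stood above number 3 in 10 of 10 groups of each set.

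ATF3, DDIT3, PPP1R15A and CEBPB passed in none of the 3 sets, with adjusted p values from 0.0549 for DDIT3 in the 2,4-D set upward. ATF3 is thus a member that stood low at 10 µM fenbuconazole with replicate means of 5.88, 5.91 and 5.86 in that set (adjusted p = 0.908). In all, 2, 5 and 6 of 10 genes passed in the fenbuconazole, imazalil and 2,4-D sets, against 0.837%, 2.13% and 3.63% of all probe sets. TRIB3 and DDIT4 passed in all 3 sets, which 0.41% of all probe sets did. For ATF5, TRIB3, CHAC1 and DDIT4 the mean of number 2 was the highest and that of number 3 the lowest in each set, which held for 1.78% of all probe sets. The sets are not independent here, because imazalil and 2,4-D share their DMSO arrays and because all sets used the same 3 numbers. Without number 2 the counts were 0, 0 and 2 of 10 genes, and without number 3 they were 2, 2 and 1. In the fenbuconazole set TRIB3 and DDIT4 had adjusted p values of 0.836 and 0.271 without number 2. The call of ATF4 in the 2,4-D set was lost with equal array medians (adjusted p = 0.06) and with a second quantile normalization (adjusted p = 0.0514). These p-values compare the 3 numbers at hand, and batch, run range and plate cannot be told apart within them.

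**Figure D3:**
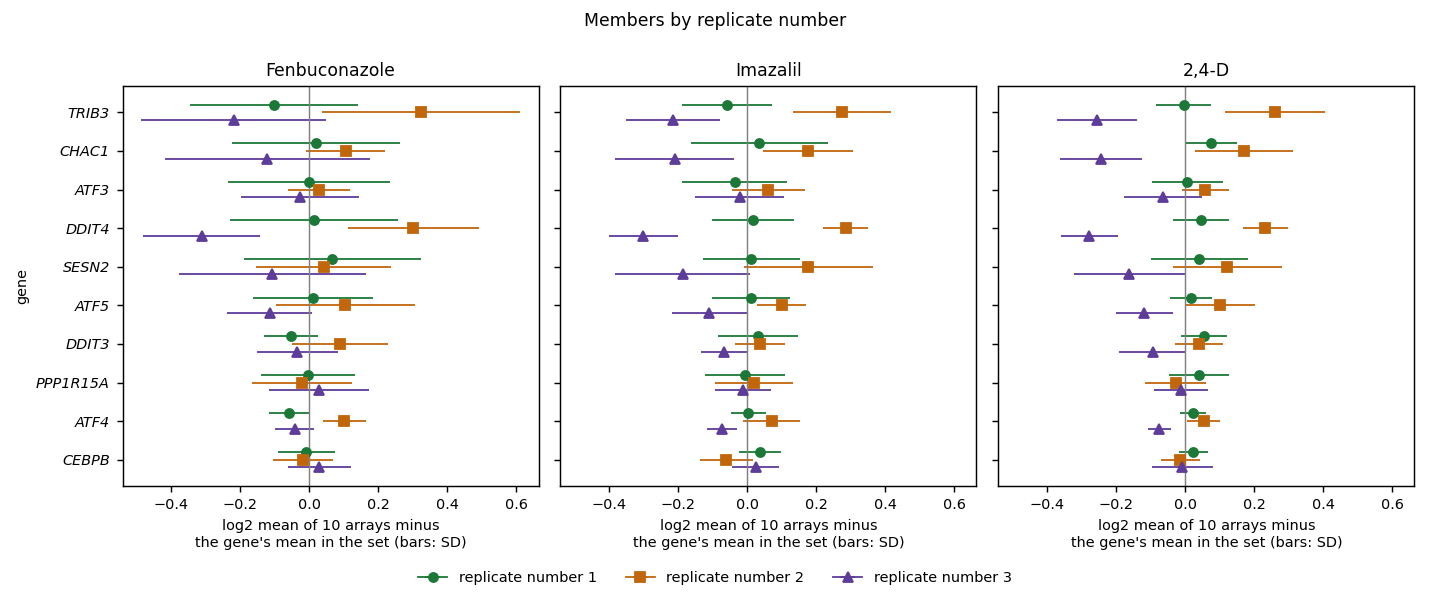
Mean log2 level of the 10 arrays of each replicate number minus the gene's mean in the set (horizontal axis, bars show the SD over the 10 arrays) for each gene (vertical axis) and set (panels). Number 2 lies highest and number 3 lowest for TRIB3 and DDIT4 in each panel, while the means of PPP1R15A and CEBPB lie within 0.10 of each other.

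Other genes of the pathway were counted by lists. Of 24 measured ATF4 targets of amino acid and redox metabolism, 23 stood lower at 10 µM fenbuconazole than at the other 8 concentrations, with a median of -0.14. With imazalil 24 of 24 stood lower (median -0.08), and with 2,4-D 17 of 24 (median -0.03), against medians of -0.0037, -0.0018 and -0.0018 over all genes. ATF4-linked genes were already known to stand low in the fungicide contrasts when the lists were chosen. Nothing is therefore read from the fungicide counts of this list. In 2,4-D, the comparison that could be tested, 0 of 24 passed with limma, and 0 of 24 had an unadjusted p under 0.05, against 6.46% of all probe sets. PCK2, the mitochondrial phosphoenolpyruvate carboxykinase, stood at -0.68 with fenbuconazole and -0.32 with imazalil. ASNS, the asparagine synthetase, stood at -0.49 and -0.25, and CTH, the cystathionine lyase that makes cysteine, at -0.48 and -0.41.

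The same enzymes varied with replicate number. PCK2 averaged 6.56, 6.94 and 6.34 in numbers 1, 2 and 3 of the fenbuconazole set (limma, adjusted p = 1.48e-06), and its adjusted p was 3.22e-07 in the imazalil set and 1.08e-06 in the 2,4-D set. Of the 24 targets 6, 9 and 15 passed for replicate number in the fenbuconazole, imazalil and 2,4-D sets, against 1.27%, 3.11% and 5.17% of all genes. The 4 that passed in all 3 sets were ASNS, CTH, PCK2 and GARS1, the glycyl-tRNA synthetase, the last named after its values were seen.

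With both fungicides the other lists had medians nearer to 0. ATF4-linked genes had been proposed from these same contrasts, so nothing is read from this order of the lists. Of 22 genes of the eIF2 machinery (kinases, eIF2 and eIF2B subunits and phosphatase partners), 13, 15 and 8 stood lower at 10 µM fenbuconazole, imazalil and 2,4-D, with medians of -0.02, -0.02 and 0.01, and 0, 0 and 2 passed for replicate number (limma, with 3, 2 and 7 at an unadjusted p under 0.05, against 11.4%, 16.7% and 18.9% of all probe sets). PPP1R15B, the constitutive partner of the eIF2 phosphatase, stood at -0.18 with fenbuconazole and -0.10 with imazalil, EIF2AK3, the kinase PERK, at -0.14 and DNAJC3, an inhibitor of such kinases, at 0.12 with fenbuconazole. With imazalil the others of largest size were NCK1 (-0.12) and PPP1CB (-0.12). Of 18 genes of the endoplasmic reticulum chaperone branch, 9, 16 and 9 stood lower, with medians of -0.0033, -0.06 and 0.00010. In this branch 0, 1 and 1 passed for replicate number. Its largest differences were XBP1 (-0.23), SEL1L (-0.21) and EDEM1 (-0.16) with fenbuconazole, and CRELD2 (-0.13), CALR (-0.12) and SEL1L (-0.12) with imazalil.

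Of 21 other ATF4 or CHOP targets, 13, 15 and 12 stood lower, with medians of -0.06, -0.04 and -0.04. For replicate number 0, 5 and 8 of them passed (limma), against 1.27%, 3.11% and 5.17% of all genes. STC2, a secreted stanniocalcin, VLDLR, a lipoprotein receptor, and HERPUD1, a factor of endoplasmic reticulum degradation, stood at -0.55, -0.34 and -0.27 with fenbuconazole. With imazalil VLDLR, GDF15 and TNFRSF10B stood at -0.17, -0.12 and -0.11. Of 24 leucine zipper partners, 15, 16 and 16 stood lower (medians -0.08, -0.05 and -0.03), and 2, 2 and 6 passed for replicate number. JDP2, a repressor of AP-1 sites, stood at -0.50 with fenbuconazole and -0.25 with imazalil, and passed for replicate number in all 3 sets (adjusted p = 0.000174, 7.84e-07 and 1.26e-05). MAFF stood at -0.41 and JUN at -0.28 with fenbuconazole, and ATF2 at 0.14 and MAF at 0.11 with imazalil. At 10 µM 2,4-D against the other 8 concentrations, 0 genes of these 4 lists passed with limma. At an unadjusted p under 0.05 there were 3 genes of the eIF2 machinery, 0 of the chaperone branch, 1 of the other ATF4 or CHOP targets and 4 of the leucine zipper partners, against 6.46% of all probe sets.

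**Figure D4:**
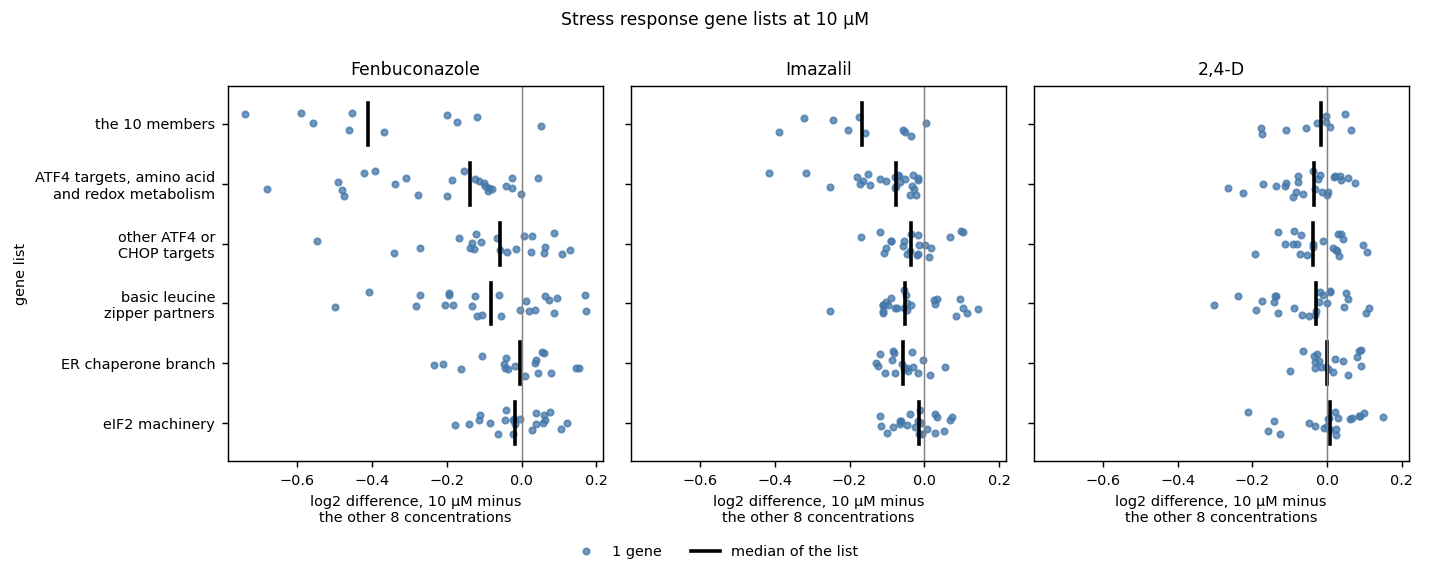
Log2 difference of 10 µM from the other 8 concentrations (horizontal axis) for the genes of 6 lists (vertical axis) in each chemical (panels), with 1 point per gene, spread vertically for legibility, and a bar at the list's median. The 10 members have medians of -0.41, -0.17 and -0.02 in fenbuconazole, imazalil and 2,4-D, and the eIF2 machinery lies near 0 in each.

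After group means and replicate-number means were removed, members varied together only weakly from array to array. Over the 87 distinct arrays, which share a normalization within each set, 32 of 45 pairs of genes correlated above 0 and the median r was 0.10. The highest was ATF3 with CHAC1 (r = 0.46, Spearman's rho = 0.44), and it was 0.37, 0.42 and 0.65 within the fenbuconazole, imazalil and 2,4-D sets. ATF3 with DDIT4 followed at 0.36 and ATF5 with TRIB3 at 0.35, while TRIB3 with CHAC1 stood at 0.03. On the second probe set of TRIB3, its correlation with CHAC1 was 0.27. The lowest pair was DDIT3 with SESN2, at -0.44, while on the second probe set of SESN2 it was 0.19. In a ranking over all 19773 other genes, each other gene was taken on its probe set with the highest r, not its brightest. These values are therefore not of the same measure as the pairs above. The genes most like TRIB3 in these residuals were LOC374443, PML, ZSCAN2, CIT and RPL7 (r from 0.49 to 0.53). Those most like CHAC1 were RHOG, GYG1, R3HCC1L, LINC00475 and TMEM179B (0.52 to 0.59), those most like ATF3 were DST, ADAMTS10, MEA1, NES and GPA33 (0.55 to 0.60), and those most like DDIT3 were PMVK, FASLG, CCDC22, S100A6 and RUFY1 (0.54 to 0.57). None of these 20 genes was a member.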

How the data were processed

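A673 cells were plated at 26000 per well and their total RNA was hybridized after 24 h of exposure. The authors normalized by RMA in Partek, once for each chemical's 30 columns (versions not given in the sources used here), and deposited log2 values by probe set, 54715 of them in 90 columns. Of these, 102 control probe sets were left out, and 40914 of the others carried 1 gene symbol in the platform annotation. A linear model without a block was fitted to the deposited values of every chemical in R 4.3.3, using limma 3.58.1, after the code had been tested on simulated data. Python 3.11.15, with numpy 2.4.6, pandas 2.3.3 and matplotlib 3.10.9, served for the plots and the motif search.

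Members, gene lists and tests were chosen with earlier results of these data known. All members were named, and of each list the 3 genes with the largest absolute difference at 10 µM of each fungicide. Deviations from group means correlated between same-numbered arrays at 0.042 (fenbuconazole), 0.0689 (imazalil) and 0.0781 (2,4-D) on average, with single pairs below 0. Of 30 arrays, 24, 28 and 30 were nearest to arrays that shared their number. The pairing was taken from the methods, which describe independent batches of cells.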

Additional observations from a re-analysis of the deposited data

Results flagged for a closer look

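DDIT4 at 10 µM stood higher than DMSO in 3 of 3 replicate numbers with 2,4-D, by 0.15 on average, and lower in 3 of 3 with fenbuconazole, by -0.43 on average, and with imazalil, by -0.23 on average. Opposite directions against DMSO in every array drew attention to it, and the difference between chemicals was not tested. The fungicide values had been used to propose the genes. How many of all probe sets show such opposite directions was not counted, so nothing is read from this pattern. Against the other 8 concentrations, DDIT4 was lower in 3 of 3 numbers with both fungicides. With 2,4-D it stood at 0.06 (SE 0.15) there, and single numbers lay on both sides of 0, from -0.02 to 0.11. The imazalil and 2,4-D values were set against the same 3 DMSO arrays.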

How the results depend on the processing

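With other settings (equal array medians, a second quantile normalization, no dim probe sets, a single probe set for each gene, a trend and robust variance model, the replicate block, and each replicate number left out), 120 of 127 values that answer a comparison kept their size. These include the counts of called members for 2,4-D at 10 µM, for slopes and among the lower concentrations. Those counts were 0 in every setting, so their being kept says little. Any other count was scored as kept when it stayed within a set ratio of its main value. With the replicate block, 0 of 10 members passed for 2,4-D at 10 µM, for any slope and among the lower concentrations, as without it, so the block changed no tested call. The median at 10 µM imazalil against DMSO moved to -0.22 over all probe sets of the members, and 4 of 10 members passed for replicate number in the fenbuconazole set with the trend and robust variance model, against 2. Leaving out 1 replicate number at a time gave 0 to 2, 0 to 5 and 1 to 4 members called for replicate number in the fenbuconazole, imazalil and 2,4-D sets. Of 1230 values of single members, 23 lost the threshold and 15 reached it, all 38 in the comparisons of replicate numbers, and 39 changed sign. None of those 39 was called, and 5 of them were differences at 10 µM of a fungicide, each without 1 replicate number. Against DMSO they were CEBPB with fenbuconazole (0.03 without number 3) and, with imazalil, DDIT3 (0.0017 without number 1), CEBPB (0.0021 without number 3) and PPP1R15A (0.02 without number 3), and against the other 8 concentrations PPP1R15A with imazalil (-0.05 without number 2). The cause was not tested. The 95% intervals of the members at 10 µM 2,4-D against DMSO came from 3 arrays per group, without the replicate block. They reached as low as -0.53 (TRIB3) and as high as 0.56 (DDIT4). Both genes passed for replicate number in that set, a spread that this fit leaves in the error. Intervals of other members were narrower, such as -0.13 to 0.18 for ATF4 and -0.16 to 0.15 for CEBPB. Differences within a member's own interval were not resolved.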
